A study of Homo sapiens with 6 samples.

Results

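The genes studied here were those of the cadherin superfamily and of the cytoplasmic plaques that anchor it: cadherins, desmosomal cadherins, catenins, desmosomal plaque genes, FAT and Dachsous cadherins, CELSR cadherins and protocadherins. They were taken from the deposited expression table by symbol alone, as every numbered CDH, CTNNA, CTNND, DSG, DSC, PKP and CELSR gene, every PCDH gene, CTNNB1, DSP, JUP, the FAT genes and both DCHS genes. The rule itself uses no measured value, although the families were chosen with earlier results of these data known, and 121 of the 26255 genes listed were members. The table came from RNA-seq of NCI-H1299, a human lung cancer cell line. Cells with a control shRNA (shControl, 3 libraries) were compared with cells with an Ephexin1 shRNA (shEphexin1, 3 libraries) to find which mRNAs differ upon Ephexin1 depletion. Ephexin1 is a guanine nucleotide exchange factor, and its gene is NGEF. All 6 libraries came from cells that had received a pSilencer2.1 plasmid with a U6 promoter, the neo version in the sample labels and the hygro version in the study's methods. The methods describe knockdown clones grown under drug selection, and the names of the shEphexin1 libraries share 1 stem, so these libraries may come from 1 clone. The p values therefore measure only the spread between these libraries.

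Cadherins are calcium-dependent adhesion receptors that pair with cadherins on the neighbouring cell. Inside the cell, classical cadherins bind beta-catenin and p120-catenin, and alpha-catenin ties them to actin, whereas desmosomal cadherins bind plakoglobin, plakophilins and desmoplakin, which reach the keratin filaments. The clustered protocadherins lie in tandem arrays in which each variable exon has its own promoter, and they are best known for giving neurons a cell surface identity.

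Levels are given in FPKM, the fragment count divided by transcript length and by the size of the library, so that levels of different genes can be compared. Values of the 3 libraries of a group are given in the order of their replicate numbers. A gene entered the test if 3 or more of the 6 libraries reached 0.1 FPKM. The test was limma on log2(FPKM + 0.1), and a call needed a 2-fold difference or more with an adjusted p no higher than 0.025. Fold changes on this log2 scale understate the difference of genes with low levels. Between 16958 and 17509 genes were above 0 FPKM per library, but the number of reads is unknown, so no interval for counting error is given. H3F3A, a histone gene that every cell uses, is listed at 0 in all 6 libraries, so a level of 0 is given here only as listed. Replicate 2 stood apart in both groups. Across genes, its deviation from the group mean fell with GC content (Spearman's rho = -0.69 for the shControl library and -0.76 for the shEphexin1 library), against rho from 0.34 to 0.66 in the other 4 libraries, so results are also given for replicates 1 and 3 alone. NGEF was at 13.3, 11.7 and 16.4 FPKM in shControl, against 9.81, 8.25 and 10.5 FPKM in shEphexin1. All shEphexin1 libraries were lower, but the gene was not called (log2 fold change = -0.53, SE = 0.163, limma adjusted p = 0.103). The study judged knockdown in its selected clones by western blot for Ephexin1 protein, which mRNA levels do not measure. CDH1, the epithelial E-cadherin, was listed at 0 in all 6 libraries. Of 5 epithelial markers (EPCAM, KRT8, KRT18, KRT19 and CDH1), 3 were tested and none was called by limma (all 3 at an unadjusted p of at most 0.05). The list, which KRT18 dominates, summed to 72.8 to 118 FPKM in shControl and 39.2 to 58.4 FPKM in shEphexin1. KRT8 and KRT18 were lower in shEphexin1, whereas EPCAM was higher (log2 fold change = 0.97) at no more than 0.220 FPKM in any library. EPCAM passed the filter only through the shEphexin1 libraries. Fibroblast markers summed to at most 0.882 FPKM in any library, with COL1A2 and LUM listed at 0 throughout. The endothelial list, of which CDH5 is a member here, summed to at most 0.590 FPKM, and leukocyte markers to at most 1.57 FPKM, with PTPRC and CD3E listed at 0. The neuronal list, which TUBB3 dominates, summed to 148 to 249 FPKM in shControl and 119 to 191 FPKM in shEphexin1.

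Of the 121 members, 76 passed the filter, 45 did not, and 13 of the latter were listed at 0 in every library. CTNNA2, DSP and PKP2 fell in the Ephexin1-depleted cells, and no member was called higher in the model of all libraries, which has no term for replicate 2. With such a term, 3 members were called higher (CELSR1, PCDHGB8P and PCDHGC4) and DCHS2 was also called lower. With replicates 1 and 3 alone, 4 members were called higher (CELSR1, PCDHGA10, PCDHGB6 and PCDHGB8P). An unadjusted limma p of at most 0.05 was reached by 30 members, and by 3737 of all genes tested. Across all 16020 genes tested, 1.89% were called, 0.893% as higher and 0.999% as lower in shEphexin1. The 3 called members were all intracellular anchoring genes, 1 catenin and 2 desmosomal plaque genes. Among members that passed, 59 had a positive log2 fold change and 17 a negative one, with a median of 0.34, whereas 7835 of all genes tested were positive and their median was -0.0093. The groups did not overlap in 37 members, 30 of them higher and 7 lower in shEphexin1. Over all genes tested the groups did not overlap in 28.3%, with 12.8% higher and 15.4% lower. Of the 43 clustered protocadherins that passed, 41 were positive, with a median of 0.54. Of the 33 members outside the clusters that passed, 18 were positive, with a median of 0.10. These counts cover only the members that passed, and members of a cluster share exons, as described with their values.

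**Figure D1:**
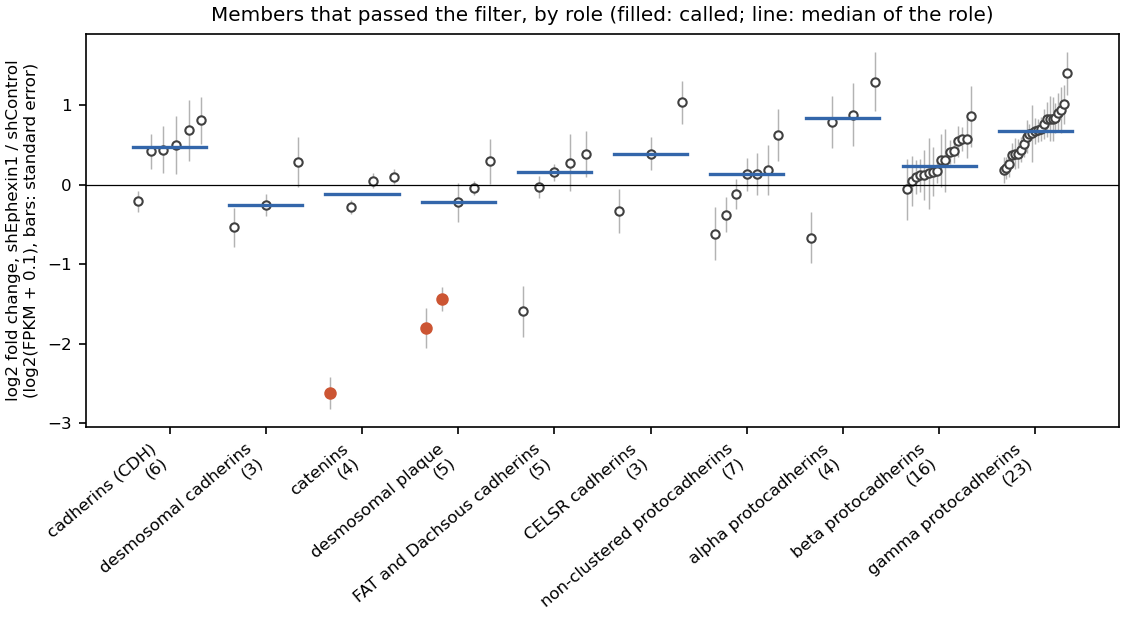
Log2 fold change (shEphexin1 over shControl, log2(FPKM + 0.1) scale) of the 76 members that passed the filter, grouped by role on the x axis with the number of genes in parentheses. Circles are genes, grey bars are standard errors, filled circles are the 3 called genes (CTNNA2, DSP and PKP2, all below 0), and blue lines are role medians, of which that of the gamma protocadherins is 0.68 with all 23 genes above 0.

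CTNNA2, which encodes alpha-N-catenin, the alpha-catenin best known from neurons, had the largest difference of all members. It was at 2.38, 2.34 and 2.74 FPKM in shControl, against 0.391, 0.307 and 0.275 FPKM in shEphexin1. The shEphexin1 libraries were all far below the lowest shControl library, and the 3 libraries of each group lay close together. The mean fell from 2.49 ± 0.221 to 0.325 ± 0.0600 FPKM (SD, n = 3), or 13.04% of the control (log2 fold change = -2.62, SE = 0.201, limma adjusted p = 0.00112). In bulk RNA, fewer cells with a transcript and less of it per cell cannot be told apart. The study drew CTNNA2 from these libraries for its figures, so its direction here is not independent evidence. The study's methods also list CTNNA2 among the genes measured by RT-qPCR, whose values are not shown here. The gene spans chr2:79412357-80875986 (GRCh37, plus strand), and the nearest tested genes on its sides, GCFC2 and SUCLG1, had log2 fold changes of -0.05 and -0.16, neither called. LRRTM1, on the opposite strand inside CTNNA2, was at most 0.147 FPKM in any library.

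Of the other catenins, those that passed the filter were far more abundant and were not called. CTNNA1, the alpha-catenin of most epithelial and mesenchymal cells, was at 119, 111 and 122 FPKM in shControl, against 121, 114 and 128 FPKM in shEphexin1 (log2 fold change = 0.05, SE = 0.0952, limma adjusted p = 0.821). Its groups overlapped. CTNNA2 therefore made up 0.827% of the summed catenin FPKM in shControl and 0.115% in shEphexin1, and CTNNA1 made up 38.9% and 43.0%. CTNNB1, beta-catenin, which both links cadherins to alpha-catenin and acts as a transcriptional coactivator in Wnt signaling, was at 141, 133 and 142 FPKM in shControl, against 117, 111 and 114 FPKM in shEphexin1. Every shEphexin1 library was below every shControl library, but the difference was small and not called (log2 fold change = -0.28, SE = 0.0882, limma adjusted p = 0.108). CTNND1, p120-catenin, which stabilizes cadherins at the membrane, was at 41.9, 44.5 and 41.7 FPKM in shControl, against 47.6, 46.5 and 43.2 FPKM in shEphexin1 (log2 fold change = 0.10, limma adjusted p = 0.590). CTNND2, a delta-catenin of neurons, was listed at 0 in all libraries and CTNNA3 was at most 0.0349 FPKM.

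CDH2, the N-cadherin of mesenchymal and neural cells, was the main classical cadherin. It was at 14.2, 15.8 and 14.0 FPKM in shControl, against 13, 14.1 and 11.03 FPKM in shEphexin1. The groups overlapped, and CDH2 was not called (log2 fold change = -0.21, SE = 0.132, limma adjusted p = 0.407). CDH24, an atypical type II cadherin, was at 6.12, 4.05 and 6.42 FPKM in shControl, against 8.35, 5.88 and 7.86 FPKM in shEphexin1 (log2 fold change = 0.42, SE = 0.221, limma adjusted p = 0.310). Replicate 2 was the lowest library of both groups, and the groups overlapped. CDH2 held 68.8% of the summed CDH level in shControl and 57.9% in shEphexin1, and CDH24 held 26.0% and 33.5%. CDH23, a cadherin of the hair cell tip link, was at 0.326, 0.309 and 0.408 FPKM in shControl, against 0.772, 0.443 and 0.900 FPKM in shEphexin1. Its groups did not overlap, with a replicate 2 difference smaller than the others, and it was not called (log2 fold change = 0.81, SE = 0.295, limma adjusted p = 0.155). The other 3 that passed, CDH12, CDH15 and CDH20, had means below 0.394 FPKM in both groups, and their groups overlapped. The remaining 17 of 23 CDH genes did not pass, and 6 of them, CDH1, CDH8, CDH9, CDH10, CDH11 and CDH13, were listed at 0 throughout. CDH5, the endothelial VE-cadherin, reached 0.276 FPKM in shEphexin1 replicate 1 and at most 0.0239 FPKM in the other libraries.

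The desmosomal plaque held both other called members. DSP encodes desmoplakin, which ties the plaque to intermediate filaments. It was at 0.717, 0.755 and 0.578 FPKM in shControl, against 0.112, 0.114 and 0.147 FPKM in shEphexin1. All shControl libraries were several times above all shEphexin1 libraries, although the level was low in both groups. The mean fell from 0.683 ± 0.0930 to 0.124 ± 0.0196 FPKM (SD, n = 3), or 18.2% of the control (log2 fold change = -1.80, SE = 0.25, limma adjusted p = 0.0103). The call was lost when any 1 library other than shEphexin1 replicate 2 was left out, and with a pseudocount of 1 FPKM (log2 fold change = -0.58), and at a filter of 1 FPKM the gene was not tested. DSP spans chr6:7541571-7586947 (GRCh37), and the nearest tested genes, RIOK1 and SNRNP48, had log2 fold changes of -0.00098 and 0.11.

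PKP2 encodes plakophilin 2, an armadillo protein that recruits desmoplakin. It was at 3.81, 3.76 and 3.59 FPKM in shControl, against 1.48, 1.24 and 1.22 FPKM in shEphexin1. The groups were well separated and tight. The mean fell from 3.72 ± 0.116 to 1.31 ± 0.142 FPKM (SD, n = 3), or 35.3% of the control (log2 fold change = -1.44, SE = 0.154, limma adjusted p = 0.00389). The gene lies at chr12:32943679-33049732 (GRCh37) on 12p, an arm whose 169 tested genes of at least 1 FPKM had a median log2 fold change of -0.43. Its nearest tested neighbours YARS2 and ALG10 were at -0.60 and -0.77. With the arm median subtracted, the log2 fold change of PKP2 was -0.98 (limma adjusted p = 0.0118), just short of 2-fold, and without shControl replicate 1 it was -1.42 (limma adjusted p = 0.0413).

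The other plaque genes were not called. PKP4, plakophilin 4 or p0071, found at both adherens junctions and desmosomes, was the most abundant at 39.9, 40.5 and 43.0 FPKM in shControl, against 40.4, 39.1 and 40.3 FPKM in shEphexin1 (log2 fold change = -0.04, limma adjusted p = 0.838, with the sign turned under quantile normalization). PKP3, plakophilin 3, was at 5.66, 3.85 and 7.38 FPKM and at 7.34, 4.90 and 8.31 FPKM (log2 fold change = 0.29, limma adjusted p = 0.592). JUP, plakoglobin, the catenin shared by desmosomes and adherens junctions, was at 1.12, 0.750 and 1.21 FPKM and at 1.02, 0.740 and 0.803 FPKM (log2 fold change = -0.22, limma adjusted p = 0.644). The groups overlapped in all 3 genes. PKP1, the plakophilin of stratified epithelia, was at most 0.0230 FPKM. Together with DSP and PKP2, 4 of the 5 plaque genes that passed had negative log2 fold changes and 2 of the 5 were called.

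Among desmosomal cadherins, DSG2, the desmoglein of simple epithelia, held 85.7% of the summed level in shControl and 86.9% in shEphexin1. It was at 15.4, 19.0 and 14.8 FPKM in shControl, against 13.1, 15.1 and 12.8 FPKM in shEphexin1 (log2 fold change = -0.26, SE = 0.139, limma adjusted p = 0.319). DSC2, its desmocollin partner, was at 2.39, 2.89 and 2.05 FPKM in shControl, against 1.64, 2.19 and 1.21 FPKM in shEphexin1 (log2 fold change = -0.54, SE = 0.245, limma adjusted p = 0.242). In both genes replicate 2 was the highest library of its group and the groups overlapped. DSG2, DSC2 and CDH2 lie on 18q, where the median log2 fold change of 123 tested genes of at least 1 FPKM was -0.44. With this median subtracted, DSG2 was at 0.17, CDH2 at 0.22 and DSC2 at -0.11 (limma adjusted p = 0.787). DSG3 had means of 0.244 and 0.313 FPKM, and DSG1, DSC1, DSC3 and DSG4 did not pass. DSG2-AS1, antisense to DSG2, was at 1.56, 0.919 and 1.13 FPKM in shControl, against 1.90, 2.00 and 0.8502 FPKM in shEphexin1. The library kit marks strand, but whether the authors counted by strand is not given in the sources used here.

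**Figure D2:**
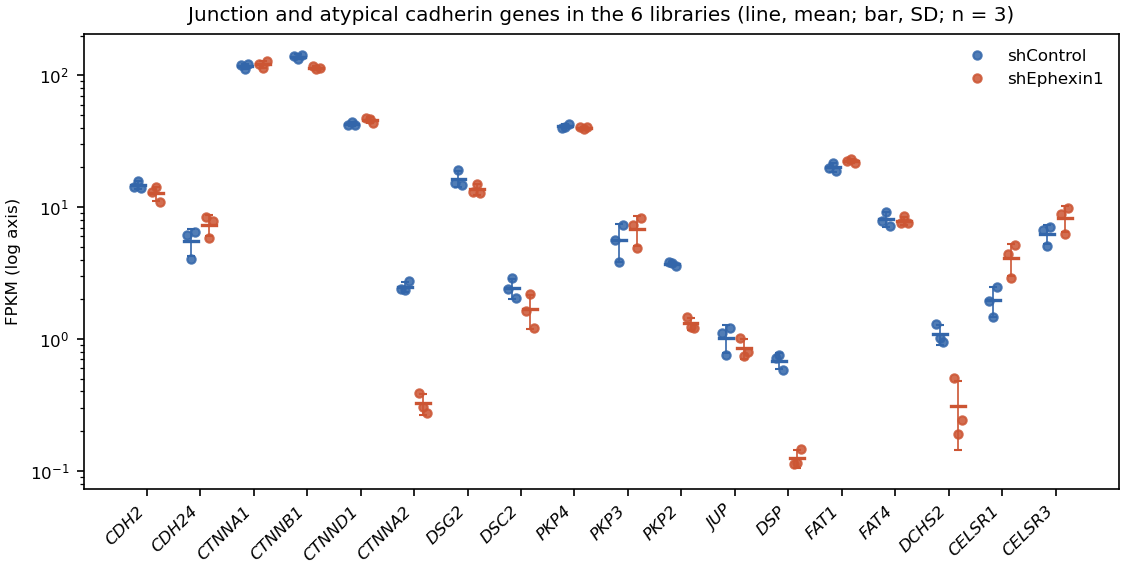
Levels of 18 cadherin, catenin, desmosomal, FAT, Dachsous and CELSR genes in each library (FPKM, log axis). Points are libraries in order of replicate number, horizontal lines are means and bars are SD (n = 3), and CTNNA2, PKP2 and DSP show shEphexin1 points far below shControl points, while CTNNA1, PKP4 and FAT4 show overlapping groups.

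FAT and Dachsous cadherins are very large receptors, and the Fat-Dachsous pair is known from planar polarity and growth control. DCHS2, a Dachsous cadherin, was at 1.31, 1.02 and 0.941 FPKM in shControl, against 0.503, 0.189 and 0.243 FPKM in shEphexin1. The groups did not overlap, and the highest shEphexin1 library was well below the lowest shControl library. The mean was 1.09 ± 0.194 against 0.312 ± 0.168 FPKM (SD, n = 3), and the gene missed the threshold (log2 fold change = -1.59, SE = 0.323, limma adjusted p = 0.0332). It was called with a term for replicate 2 (limma adjusted p = 0.00697) and with replicate number as a block (0.00505). It was also called with a correction for GC content and transcript length (0.00748) and under quantile normalization (0.0237). DCHS2 was not called with replicates 1 and 3 alone (0.0445) nor with any 1 library left out (0.0395 to 0.144). With a pseudocount of 1 FPKM its log2 fold change was -0.68, under 2-fold. FAT1, a large atypical cadherin that regulates actin at cell contacts, was at 19.7, 21.8 and 18.8 FPKM in shControl, against 22.4, 23.1 and 21.6 FPKM in shEphexin1 (log2 fold change = 0.15, limma adjusted p = 0.449). FAT4, the receptor for Dachsous, was at 7.91, 9.19 and 7.15 FPKM and at 7.55, 8.53 and 7.59 FPKM (log2 fold change = -0.03, limma adjusted p = 0.932). The groups of FAT1 and FAT4 overlapped, and both were far above DCHS1 (means 0.238 and 0.314 FPKM) and FAT2 (0.101 and 0.162 FPKM). FAT3 was at most 0.00501 FPKM.

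The CELSR genes encode the flamingo cadherins, seven-pass receptors of planar cell polarity. CELSR1 was at 1.95, 1.46 and 2.48 FPKM in shControl, against 4.41, 2.88 and 5.15 FPKM in shEphexin1. Every shEphexin1 library was above every shControl library, and replicate 2 was the lowest of each group. The mean was 1.96 ± 0.506 against 4.14 ± 1.16 FPKM (SD, n = 3), and the gene was not called in the comparison of all libraries (log2 fold change = 1.03, SE = 0.271, limma adjusted p = 0.0663). With replicates 1 and 3 alone it was called at an adjusted p of 0.0127 by limma, whereas with a correction for GC content and transcript length its log2 fold change was 0.71, under 2-fold (limma adjusted p = 0.00467). CELSR3, the most abundant of the 3, was at 6.76, 5.10 and 7.04 FPKM and at 8.90, 6.26 and 9.86 FPKM (log2 fold change = 0.39, SE = 0.210, limma adjusted p = 0.324), and with the same correction its log2 fold change was 0.08 (limma adjusted p = 0.441). CELSR2 had means of 0.480 and 0.360 FPKM (log2 fold change = -0.33, limma adjusted p = 0.527). The groups of CELSR2 and CELSR3 overlapped.

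Of the 13 non-clustered protocadherins, 7 passed and none was called by limma (0 at an unadjusted p of at most 0.05), with a median log2 fold change of 0.13. PCDH7, the most abundant, was at 5.09, 4.52 and 5.21 FPKM in shControl, against 4.90, 3.50 and 5.45 FPKM in shEphexin1 (log2 fold change = -0.12, limma adjusted p = 0.769), with overlapping groups. PCDH9 was at 0.916, 1.05 and 0.774 FPKM and at 0.918, 1.16 and 0.942 FPKM (log2 fold change = 0.13, limma adjusted p = 0.763). PCDH1 was at 0.131, 0.0956 and 0.138 FPKM in shControl, against 0.359, 0.1699 and 0.216 FPKM in shEphexin1. Its groups did not overlap at these low levels, and it was not called (log2 fold change = 0.62, limma adjusted p = 0.302). PCDH8, PCDH17 and PCDH20 were listed at 0 throughout. PCDH11X and its near-identical copy on the Y chromosome cannot be told apart by short reads with certainty, and no value is given for them. The Y copy, PCDH11Y, is among the 7 that passed and enters the counts and the median.

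The clustered protocadherins lie side by side on 5q (GRCh37): 15 alpha genes in chr5:140165721-140391932, 19 beta genes in chr5:140430959-140628933 and 23 gamma genes in chr5:140710081-140892544. In the gamma cluster, 22 genes share 3 constant exons (chr5:140874374-140874432, chr5:140884960-140885048 and chr5:140890514-140892542), and the alpha genes share constant exons likewise. How reads of these exons were split between the genes is not given in the sources used here, so the level of a single gamma or alpha gene is uncertain and the genes are not independent of each other. The beta genes are mostly single-exon genes that share no constant exons. Protocadherin promoters are known for a conserved element with a CGCT core. The 6-base word found in the most gamma promoters was CGCTGT, counted on the strand of the gene in the 250 bases before and 50 bases after the gene start (RefSeq, GRCh38.p14), and it held for 17 of the 20 gamma genes with a promoter in that table (85%). On the same strand it was found in 6 of 13 alpha promoters (46.2%), 1 of 14 beta promoters (7.14%), 4 of 43 promoters of members outside the clusters (9.30%) and 1965 of 27305 promoters of all genes (7.20%). On either strand, where the reverse complement ACAGCG also counts, the shares were 85%, 53.8%, 7.14%, 18.6% and 13.3%. The word was chosen as the most shared one of the gamma promoters, so its share there is a description, and a match is not a binding site. Only the whole word was counted. Its share in the beta, alpha or other promoters does not tell how many hold the CGCT core with other bases beside it. In 16 of the 17 genes the word lay 30 to 110 bases before the gene start, and in PCDHGB2 it lay 199 bases before it. Whether the word is the conserved element in each gene was not tested. The sequences below show the word for genes across the range of differences, so that shared and differing letters can be seen. They include PCDHGB6 and PCDHGC4 with large differences and PCDHGA6 and PCDHGB2 with small ones. Each runs 5′ to 3′ on the plus strand, with CGCTGT in capitals and 20 bases on each side:
PCDHGA3, chr5:141343763-141343808: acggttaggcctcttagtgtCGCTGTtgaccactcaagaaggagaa
PCDHGA7, chr5:141382645-141382690: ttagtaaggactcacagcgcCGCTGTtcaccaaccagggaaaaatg
PCDHGA9, chr5:141402710-141402755: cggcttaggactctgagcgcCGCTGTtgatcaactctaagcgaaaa
PCDHGA10, chr5:141412927-141412972: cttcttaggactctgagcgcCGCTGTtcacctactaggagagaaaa
PCDHGB6, chr5:141407920-141407965: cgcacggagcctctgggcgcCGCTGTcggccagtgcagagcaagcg
PCDHGC4, chr5:141484948-141484993: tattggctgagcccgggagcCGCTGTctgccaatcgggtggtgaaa
PCDHGA6, chr5:141373831-141373876: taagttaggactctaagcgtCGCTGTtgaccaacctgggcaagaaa
PCDHGB2, chr5:141359917-141359962: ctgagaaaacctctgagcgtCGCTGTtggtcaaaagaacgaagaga

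All 23 gamma protocadherins passed the filter and had positive log2 fold changes, from 0.18 for PCDHGB3 to 1.40 for PCDHGB8P, with a median of 0.68. None was called by limma, 17 had an unadjusted p of at most 0.05, 5 had an adjusted p of at most 0.05, and in 18 the groups did not overlap. Of all 16020 genes tested, 3737 had an unadjusted p of at most 0.05, 1123 had an adjusted p of at most 0.05, and 12.8% were higher without overlap. Their summed level was 78.6, 88.9 and 72.9 FPKM in shControl, against 119, 111 and 127 FPKM in shEphexin1. Every shEphexin1 library was above every shControl library, with the smallest gap in replicate 2. The mean sum was 80.2 ± 8.13 against 119 ± 8.01 FPKM (SD, n = 3), a ratio of 1.48. Within replicate 2 alone, 19 of 23 genes were higher in shEphexin1 (7607 of all 16020 genes tested). In replicates 1 and 3 each, 23 of 23 were (8044 and 7540 of all genes). These counts compare libraries that share only a number, over genes that share exons, so they are not independent repeats. With replicates 1 and 3 alone, 6 gamma genes reached an adjusted p of 0.025 or less by limma and 3 were called as higher, namely PCDHGA10, PCDHGB6 and PCDHGB8P. Without shControl replicate 2, PCDHGA10 and PCDHGB8P were called.

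PCDHGA3, a variable-exon adhesion receptor like the other gamma genes, was the most abundant. It was at 19.9, 19.6 and 16.5 FPKM in shControl, against 29.8, 26.7 and 30.6 FPKM in shEphexin1. The groups were clearly apart, and the mean was 18.7 ± 1.92 against 29.1 ± 2.06 FPKM (SD, n = 3; log2 fold change = 0.64, SE = 0.122, limma adjusted p = 0.0279). PCDHGA3 held 23.3% of the summed gamma level in shControl and 24.4% in shEphexin1, so its share was nearly equal in the groups. PCDHGA4, the second in level, was at 6.97, 7.96 and 6.06 FPKM and at 8.38, 8.38 and 10.4 FPKM (log2 fold change = 0.37, SE = 0.155, limma adjusted p = 0.209). Its groups did not overlap but came close.

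PCDHGB8P, annotated as a pseudogene, had the largest log2 fold change of the cluster. It was at 1.03, 1.61 and 0.738 FPKM in shControl, against 3.22, 3.16 and 2.63 FPKM in shEphexin1 (log2 fold change = 1.40, SE = 0.272, limma adjusted p = 0.0299). All shEphexin1 libraries were above the highest shControl library by a wide margin. PCDHGA7 was at 3.15, 2.81 and 2.66 FPKM in shControl, against 4.34, 4.78 and 4.88 FPKM in shEphexin1 (log2 fold change = 0.68, SE = 0.141, limma adjusted p = 0.0343). PCDHGA9 was at 2.24, 1.95 and 2.16 FPKM and at 3.17, 3.49 and 3.87 FPKM (log2 fold change = 0.70, SE = 0.152, limma adjusted p = 0.0388). PCDHGB7 was at 2.17, 2.58 and 1.84 FPKM and at 3.49, 3.89 and 4.62 FPKM (log2 fold change = 0.84, SE = 0.185, limma adjusted p = 0.0404). In these 3 genes no shEphexin1 library came down to the shControl range. PCDHGC4, one of the C-type genes at the end of the cluster, was at 0.705, 0.511 and 0.455 FPKM in shControl, against 1.47, 0.953 and 1.24 FPKM in shEphexin1 (log2 fold change = 1.01, SE = 0.249, limma adjusted p = 0.0569). The 5 genes whose groups overlapped were PCDHGA1, PCDHGA5, PCDHGA6, PCDHGB3 and PCDHGC3.

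**Figure D3:**
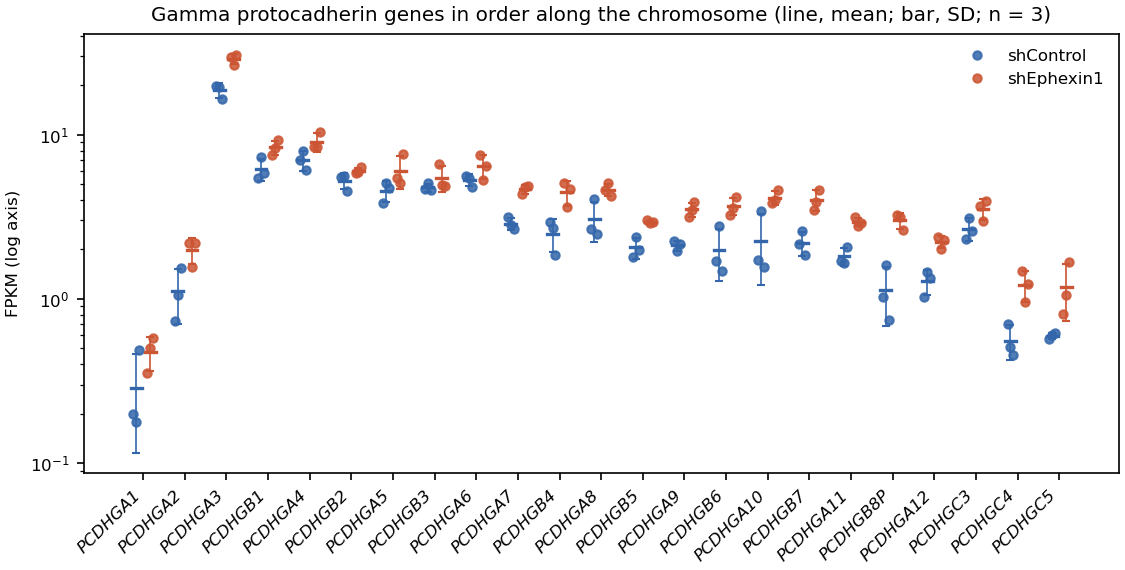
Levels of the 23 gamma protocadherin genes in each library (FPKM, log axis), in their order along the chromosome. Points are libraries, lines are means and bars are SD (n = 3), and the shEphexin1 mean is above the shControl mean in all 23 genes, while the groups overlap in 5.

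The beta protocadherins gave smaller differences. Of 19 genes, 16 passed, 15 of them with positive log2 fold changes and a median of 0.23, none was called by limma (4 had an unadjusted p of at most 0.05), and in 6 the groups did not overlap, all 6 higher in shEphexin1. Over all genes tested, 28.3% did not overlap (12.8% as higher), and 3737 of 16020 had such an unadjusted p. PCDHB14 was at 4.87, 5.73 and 5.10 FPKM in shControl, against 7.21, 7.85 and 5.97 FPKM in shEphexin1 (log2 fold change = 0.41, SE = 0.150, limma adjusted p = 0.157). PCDHB6 was at 4.22, 4.47 and 4.30 FPKM and at 6.79, 5.48 and 7.35 FPKM (log2 fold change = 0.57, SE = 0.149, limma adjusted p = 0.0650). Both most abundant beta genes were higher in all shEphexin1 libraries. PCDHB7, at 0.0287, 0.128 and 0.175 FPKM in shControl, against 0.2999, 0.180 and 0.325 FPKM in shEphexin1, had the largest log2 fold change of the cluster (0.85, limma adjusted p = 0.239) at a low level. PCDHB5, PCDHB9 and PCDHB18P were the others without overlap, and PCDHB3 was the one gene with a negative value (-0.06). The summed beta level was 21.9, 23.8 and 21.9 FPKM in shControl, against 31.3, 28.2 and 28.0 FPKM in shEphexin1, a ratio of 1.30 with no overlap. PCDHB1, PCDHB8 and PCDHB16 did not pass.

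The alpha protocadherins were low, with a summed level of 0.833, 0.773 and 0.492 FPKM in shControl, against 1.47, 1.03 and 1.61 FPKM in shEphexin1. The sums did not overlap, and 11 of the 15 genes did not pass the filter. PCDHA11 was at 0.0497, 0.139 and 0.0295 FPKM in shControl, against 0.416, 0.324 and 0.208 FPKM in shEphexin1 (log2 fold change = 1.29, SE = 0.370, limma adjusted p = 0.0857). PCDHAC1 was at 0.109, 0.0363 and 0.0465 FPKM and at 0.194, 0.195 and 0.148 FPKM (log2 fold change = 0.79, limma adjusted p = 0.205). Both genes passed the filter mainly through the shEphexin1 libraries, where they were high. PCDHA12 had means of 0.118 and 0.292 FPKM with overlapping groups (log2 fold change = 0.87, limma adjusted p = 0.239). PCDHAC2 differed in direction, at 0.279, 0.155 and 0.207 FPKM in shControl, against 0.0816, 0.0723 and 0.137 FPKM in shEphexin1 (log2 fold change = -0.67, limma adjusted p = 0.266). It was the only alpha gene of the 4 tested whose shEphexin1 libraries were all below the shControl libraries.

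**Figure D4:**
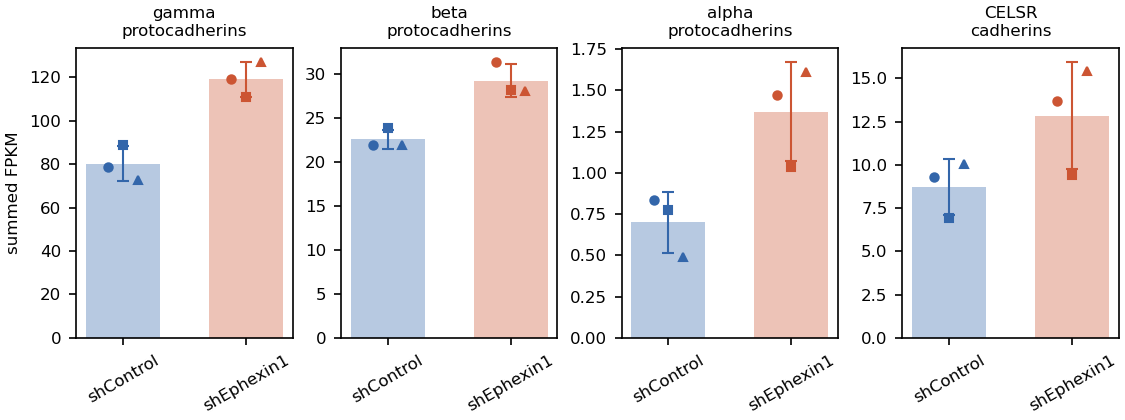
Summed FPKM of the gamma, beta and alpha protocadherins and the CELSR cadherins. Bars are means, error bars SD (n = 3), and points are libraries (circle, replicate 1; square, replicate 2; triangle, replicate 3), and the groups do not overlap in the gamma sum (72.9 to 88.9 against 111 to 127 FPKM), whereas they do in the CELSR sum.

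The genes around the clusters were compared to see whether the whole stretch moved. The 564 tested genes of 5q outside the clusters had a median log2 fold change of 0.02, and 6 of them were called higher and 3 lower. TAF7, a subunit of the general transcription factor TFIID that lies between the beta and gamma clusters, had means of 48.9 and 51.7 FPKM (log2 fold change = 0.08, limma adjusted p = 0.707). SLC25A2, a mitochondrial carrier gene in the same interval, had means of 0.263 and 0.651 FPKM (log2 fold change = 1.11, limma adjusted p = 0.108). DIAPH1, a formin that nucleates actin filaments, lies next to the gamma cluster on the opposite strand (chr5:140894583-140998622, GRCh37). It was at 27.3, 26.8 and 27.7 FPKM in shControl, against 41.9, 37.6 and 40.3 FPKM in shEphexin1. The groups were far apart, and its adjusted p passed but its difference was under 2-fold (log2 fold change = 0.55, SE = 0.0967, limma adjusted p = 0.0211). HDAC3, the next gene, had a log2 fold change of -0.10 (limma adjusted p = 0.674), and on the other side ZMAT2 was at -0.22 (limma adjusted p = 0.203). Farther out on that side, HBEGF, an EGF receptor ligand, was at 7.61, 5.89 and 8.66 FPKM in shControl, against 13.4, 12.1 and 12.6 FPKM in shEphexin1, with no overlap (log2 fold change = 0.79, SE = 0.161, limma adjusted p = 0.0337). Genes around the clusters thus had values of both signs, some as large as those of the gamma genes.

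**Figure D5:**
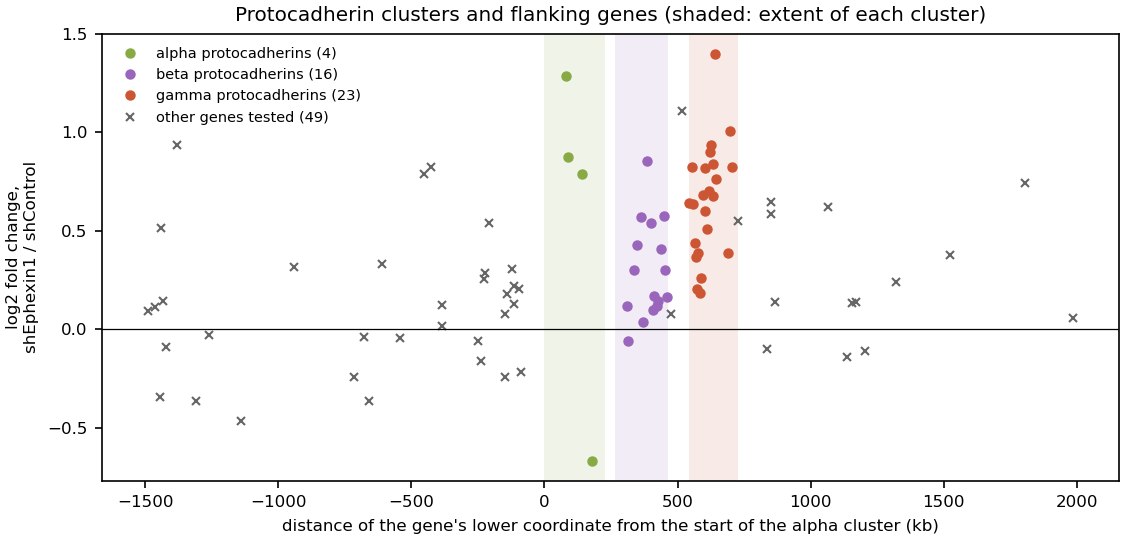
Log2 fold change (shEphexin1 over shControl) of tested genes against the distance of their lower coordinate from the start of the alpha cluster (kb), with the extent of each cluster shaded. Coloured points are alpha (4), beta (16) and gamma (23) protocadherins and crosses are the other 49 tested genes, and all gamma points lie above 0 while the crosses fall on both sides.

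Genes that load or position the loops of the protocadherin clusters, or silence them, were read as a list of 10 (CTCF, RAD21, SMC1A, SMC3, STAG1, STAG2, NIPBL, WAPAL, SMCHD1 and DNMT3B). All 10 passed, 9 had negative log2 fold changes with a median of -0.20, and none was called by limma (3 at an unadjusted p of at most 0.05). Of all 16020 genes tested, 8185 were negative, 3737 had such an unadjusted p and 1.89% were called. The list mixes genes of the loops with genes that silence the clusters, so the count of negative values has no single meaning. Their summed level ranged from 329.7 to 407 FPKM in shControl and from 261 to 339.9 FPKM in shEphexin1, with overlapping groups. SMCHD1, a chromatin protein known to repress the clusters, was at 45.7, 58.4 and 40.2 FPKM in shControl, against 31.2, 41.9 and 28.1 FPKM in shEphexin1 (log2 fold change = -0.51, limma adjusted p = 0.165). Its groups overlapped. The others at an unadjusted p of at most 0.05 were RAD21 and SMC3. RAD21 was at 139, 159 and 138 FPKM in shControl, against 111, 130 and 102 FPKM in shEphexin1, without overlap (log2 fold change = -0.35, limma adjusted p = 0.136). SMC3 had means of 33.8 and 24.9 FPKM with overlapping groups (log2 fold change = -0.45, limma adjusted p = 0.175). CTCF, the DNA-binding protein of the loop anchors, was at 16.4, 17.7 and 15.3 FPKM and at 16.2, 15.8 and 15.2 FPKM. The part of any of these genes in the protocadherin levels was not tested.

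Partners of the members at cell contacts were read as 3 lists, beside the 1.89% of all genes tested that were called. Of 14 nectin, afadin and actin linker genes, 12 passed, 9 had positive log2 fold changes, and PVRL1 was the 1 gene called. PVRL1, nectin-1, an adhesion receptor that seeds adherens junctions, was at 0.707, 0.560 and 1.09 FPKM in shControl, against 4.42, 3.51 and 4.90 FPKM in shEphexin1, and it rose (log2 fold change = 2.34, limma adjusted p = 0.00417). ZYX, zyxin, which marks tensed actin at junctions, was at 35.3, 29.2 and 40.8 FPKM and at 74.2, 52.3 and 79.4 FPKM, and was not called (log2 fold change = 0.96, limma adjusted p = 0.0324). ZYX lies on 7q, where the median log2 fold change was 0.30. Of 20 tight junction genes, 18 passed, 13 with positive values, and CLDN1 was the 1 gene called. CLDN1, claudin-1, fell from 8.17, 8.36 and 6.91 FPKM to 2.32, 3.12 and 2.41 FPKM (log2 fold change = -1.55, limma adjusted p = 0.00385). PARD6B, a cell polarity adaptor, was at 1.502, 1.85 and 1.55 FPKM and at 0.832, 0.963 and 0.840 FPKM (log2 fold change = -0.82, limma adjusted p = 0.0409). Of 5 desmosome partners, 4 passed and none was called by limma (2 at an unadjusted p of at most 0.05). KRT8 and KRT18, the keratin pair that desmoplakin anchors in simple epithelia, had means of 6.78 and 3.13 FPKM (log2 fold change = -1.07, limma adjusted p = 0.0304) and of 88.9 and 46.2 FPKM (log2 fold change = -0.94, limma adjusted p = 0.0439). In both keratins the groups did not overlap, where 15.4% of all genes tested were lower without overlap. KRT8 (chr12:53290971-53343738) and KRT18 (chr12:53342655-53346690, GRCh37) lie side by side on 12q. The call of PVRL1 was lost without shControl replicate 1, shEphexin1 replicate 1 or shEphexin1 replicate 3 (limma adjusted p = 0.0364, 0.0324 and 0.0267), and that of CLDN1 without replicate 1 of either group (limma adjusted p = 0.0398 and 0.0306). ZYX and KRT8 were called with replicates 1 and 3 alone (limma adjusted p = 0.00328 and 0.00705), ZYX also without shEphexin1 replicate 2 and KRT8 also without shControl replicate 2. In all, ZYX was called in 3 of 22 alternatives and KRT8 in 9 of 22.

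The planar polarity partners of the CELSR and FAT cadherins were a list of 13 genes. Of these, 11 passed, 10 had negative log2 fold changes with a median of -0.17, and 2 were called, both lower, where 0.999% of all genes tested were called lower. PRICKLE1, a cytoplasmic polarity protein, fell from 1.98, 1.73 and 2.24 FPKM to 0.556, 0.406 and 0.460 FPKM (log2 fold change = -1.86, limma adjusted p = 0.00431). FZD3, a Frizzled receptor that works with CELSR cadherins, fell from 1.38, 1.62 and 1.07 FPKM to 0.355, 0.456 and 0.419 FPKM (log2 fold change = -1.50, limma adjusted p = 0.0139). The study drew FZD3 from these libraries too, and lists it among the genes measured by RT-qPCR. PTK7, a polarity co-receptor, was at 2.58, 1.43 and 2.52 FPKM and at 0.467, 0.633 and 0.9504 FPKM, with no overlap, and was not called (log2 fold change = -1.54, limma adjusted p = 0.0342). The call of FZD3 was lost when any 1 library other than shEphexin1 replicate 2 was left out (limma adjusted p = 0.0334 to 0.0851) and with a pseudocount of 1 FPKM (log2 fold change = -0.73), and that of PRICKLE1 without shControl replicate 1 or 3 (limma adjusted p = 0.0413 and 0.0261). PTK7 was called in 6 of 22 alternatives, among them replicates 1 and 3 alone (log2 fold change = -1.78, limma adjusted p = 0.0153).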

How the data were processed

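RNA-seq was done on 3 shControl and 3 shEphexin1 libraries of H1299 cells with a stranded total RNA kit. Reads were aligned to the GRCh37/hg19 genome by the authors with TopHat2 2.0.13, and Cuffdiff (Cufflinks 2.2.1, geometric normalization, pooled dispersion) gave 1 FPKM value per gene in each library. Bowtie and bcl2fastq 2.20 are also named in the submitters' processing notes. The gene annotation used for counting is not given in the sources used here, and FPKM keeps no read depth. The deposited FPKM were assigned to libraries by column name, with 0 value columns left out. Genes that reached 0.1 FPKM in 3 or more libraries (16020 of 26255) were tested as log2(FPKM + 0.1) with limma 3.58.1 (lmFit, eBayes with trend) in R 4.3.3 with p adjusted by Benjamini-Hochberg across the whole set tested. Calls need an adjusted p of at most 0.025 and at least 2-fold. The script was tested on simulated data. Positions come from GENCODE on GRCh37 (all 121 members matched), and promoters from RefSeq on GRCh38.p14. Python 3.11.15 with pandas 2.3.3 and matplotlib 3.10.9 was used.

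The members, the 13 gene lists and the tests were chosen with earlier results of these data known. Named genes were members called, at an adjusted p of at most 0.05, or without overlap at 2-fold or more, the 2 most abundant tested members of each role, and fixed junction genes (CTNNA2, CDH1, CDH2, CTNNA1, CTNNB1, CTNND1, JUP, DSP, DSG2, PKP2 and FAT1), with list genes called or at an adjusted p of at most 0.05. Other genes, including the gamma genes singled out, the chromosomal neighbours, SMCHD1, RAD21, SMC3 and CTCF, were named after their values had been seen. Alternatives were pseudocounts of 1 and 0.01 FPKM, no filter or 1 FPKM, median centring, quantile normalization, other eBayes settings, replicate number as a block, a term for replicate 2, replicates 1 and 3 alone, a correction for GC content and transcript length (94.9% of genes tested had both), subtraction of chromosome arm medians, other thresholds and each library left out.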

Additional observations from a re-analysis of the deposited data

How the results depend on the processing

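CTNNA2 was called under every alternative run, with log2 fold changes from -2.91 to -1.40. Against 3 members called (0 higher, 3 lower), 7 were called (3 higher) with a replicate block and with a term for replicate 2, 7 (4 higher) with replicates 1 and 3 alone, and 5 (1 higher) with a correction for GC content and length, without or with the block, and at an adjusted p of at most 0.05. With arm medians subtracted, 3 were called, 1 of them higher. With each library left out in turn, 1 to 4 were called, 0 to 2 higher and 1 to 3 lower. Without shControl replicate 1 only CTNNA2 remained, and without shControl replicate 2 PCDHGA10 and PCDHGB8P were called higher. The median log2 fold change of the members was 0.15 with a pseudocount of 1 FPKM and 0.19 with no filter (108 members tested) against 0.34. The sign turned for CDH2 (0.22) and DSG2 (0.17) with arm medians subtracted, for PKP4 (0.047) under quantile normalization, for FAT4 with replicates 1 and 3 alone (0.0094) and without shControl replicate 2 or shEphexin1 replicate 1 (range with 1 library left out, -0.11 to 0.066), and for PCDH7 with replicates 1 and 3 alone (0.0060), with arm medians subtracted (0.080) and without shEphexin1 replicate 2 (range -0.25 to 0.067). None of these genes was called in either direction. The cause of these shifts was not tested.

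The replicate block paired libraries that share only a number. The correlations of same-numbered deviations from the group means were 0.09, 0.43 and 0.33, so the numbers were not taken as pairs, although every library correlated best with its own number. With the block, 12 gamma protocadherins had an adjusted p of at most 0.025 and 2 were called, PCDHGB8P and PCDHGC4. Every gamma gene tested had a positive log2 fold change under each alternative run, a count chosen after the data had been seen. Read depth is unknown, which limits statements on members below 1 FPKM.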

Other observations

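Readouts of beta-catenin signaling did not share 1 direction. Of 10 beta-catenin target genes, 8 passed the filter, 5 had positive log2 fold changes, and TCF7 was the 1 gene called. Of all 16020 genes tested, 7835 were positive and 1.89% were called. TCF7, a transcription factor that beta-catenin binds, rose from 2.78, 3.09 and 3.37 FPKM to 6.52, 6.25 and 6.69 FPKM (log2 fold change = 1.05, limma adjusted p = 0.00765). The call was lost without replicate 1 or 3 of either group (limma adjusted p = 0.0272 to 0.058), and the difference was under 2-fold with a pseudocount of 1 FPKM or a correction for GC content and length. AXIN2, a feedback inhibitor of the pathway, had means of 1.05 and 1.41 FPKM with overlapping groups and was not called.

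VIM, the intermediate filament gene of mesenchymal cells, was at 2181, 1979 and 2334 FPKM in shControl, against 2566, 2240 and 2670 FPKM in shEphexin1. ZEB1 and ZEB2, repressors of E-cadherin transcription, had means of 14.0 and 15.8 FPKM and of 10.7 and 13.7 FPKM. Of 10 regulators and markers of the epithelial-mesenchymal transition, 9 passed, 8 had positive log2 fold changes, none was called by limma (2 at an unadjusted p of at most 0.05) and SNAI2 was listed at 0. Of all 16020 genes tested, 7835 were positive and 3737 had such an unadjusted p. The list mixes mesenchymal genes with epithelial ones such as EPCAM, which had its largest positive value (0.97), so the count gives no direction. Of 7 proteases and gamma-secretase subunits that cleave cadherins, all passed, 6 had positive values and none was called by limma (1 at an unadjusted p of at most 0.05). ADAM17, a sheddase, was at 20.9, 21.4 and 21.3 FPKM in shControl, against 29.5, 30.6 and 26.8 FPKM in shEphexin1 (log2 fold change = 0.45, limma adjusted p = 0.0435).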
